A study of Mus musculus with 4 samples.

Results

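The 9 keratins described here are Krt7, Krt8, Krt18, Krt19 and Krt23, which are typical of simple (single-layered) epithelia, and Krt5, Krt14, Krt15 and Krt17, which are typical of basal cells or of stratified epithelia. They were chosen by name and class from the 46983 genes listed for larynxes of mouse embryos at E10.5, with 32 to 35 somites. Each of the 4 RNA-seq libraries was made from a pool of 3 larynxes. Shh1 and Shh2 are Shh-/- pools carrying the null allele Shhtm1amc, and WT4 and WT6 are Swiss Webster WT pools. Per the study's methods, the mutant allele was also kept on Swiss Webster. The genotype entry of the mutant pools is written as Shh+/- in the sample labels, and the study's text calls the same larynxes Shh-/-, which is used here. The allele is carried by every cell of the embryo, so a difference cannot be placed in 1 tissue, and each pool mixes embryos. Of the 9 keratins, 6 had enough RNA to be tested, and Krt14, Krt17 and Krt23 were not tested. None of the 6 passed the threshold between genotypes. Few genes did, with 0.165% of all tested genes lower in Shh-/- and 0.56% higher, so this count is not particular to keratins.

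Keratins are the intermediate filament proteins of epithelial cells. A type I (acidic) and a type II (basic) keratin pair to build each filament, so every epithelial cell makes at least 1 of each type. Krt8 (type II) and Krt18 (type I) are the founding pair of embryonic simple epithelia, including the gut tube, and Krt7 and Krt19 are added in ducts and airways. Krt5 and Krt14 form the pair of basal cells, the stem cells of the later airway and skin. Simple keratins are also made outside the foregut, in surface ectoderm, notochord and mesothelium. In bulk tissue, fewer cells of a type and less RNA per cell cannot be told apart.

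The type II members and Krt18 lie together on chromosome 15, and the other type I members lie on chromosome 11 (build mm10). Krt8 (15:101996711-102004342, minus strand) and Krt18 (15:102028216-102032026, plus strand) are transcribed away from each other, with 23873 bases between the 2 genes. The other type II members are Krt7 (15:101411043-101430313, plus strand) and Krt5 (15:101707070-101712891, minus strand). On chromosome 11, all on the minus strand, are Krt23 (11:99477974-99493137), Krt15 (11:100131758-100135928), Krt19 (11:100140810-100148665), Krt14 (11:100203162-100207548) and Krt17 (11:100256217-100261029).

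The start regions of Krt8, Krt18, Krt7 and Krt5 are shown because these 4 genes are the tested members whose Shh-/- pools lay wholly on one side of the WT pools. RefSeq (GRCm38.p6) gave a promoter entry for 6 of the 9 members. Each run holds 250 bases before the start and 25 from the start on, 5′ to 3′ on the gene's own strand. The start is the RefSeq one. For Krt7 it is at 15:101412403, and the whole Krt7 window lies inside the gene span given above. Capitals mark every match, on either strand, to 5 motifs. GACCACCCA is the GLI site, bound by the effectors of Hedgehog signalling. The E-box searched, which Snail and ZEB factors bind, is CAGGTG. GCCNNNGGC is the AP-2 site. The letters used for the factor SP1, which binds GC-rich promoters, were GGGCGG. The TATA box, which positions the start of transcription, was searched as TATAAA.
Krt8, chr15:102004318-102004592, minus strand: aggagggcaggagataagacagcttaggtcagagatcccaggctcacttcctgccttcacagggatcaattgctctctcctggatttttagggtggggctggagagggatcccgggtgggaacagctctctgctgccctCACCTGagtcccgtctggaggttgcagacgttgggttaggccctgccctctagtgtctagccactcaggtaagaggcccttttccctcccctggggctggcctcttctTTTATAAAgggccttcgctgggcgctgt
Krt18, chr15:102027966-102028240, plus strand: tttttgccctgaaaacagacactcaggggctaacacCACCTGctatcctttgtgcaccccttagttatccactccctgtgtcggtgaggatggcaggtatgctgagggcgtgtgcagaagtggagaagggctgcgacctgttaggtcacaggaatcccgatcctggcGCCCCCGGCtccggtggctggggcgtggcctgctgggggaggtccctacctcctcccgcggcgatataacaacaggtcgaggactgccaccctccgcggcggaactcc
Krt7, chr15:101412153-101412427, plus strand: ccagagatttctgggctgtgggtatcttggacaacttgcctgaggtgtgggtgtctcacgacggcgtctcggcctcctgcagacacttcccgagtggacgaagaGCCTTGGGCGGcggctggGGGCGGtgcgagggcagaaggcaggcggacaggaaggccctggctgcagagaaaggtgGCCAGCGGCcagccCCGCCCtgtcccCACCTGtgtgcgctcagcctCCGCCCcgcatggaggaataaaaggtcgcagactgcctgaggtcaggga
Krt5, chr15:101712881-101713155, minus strand: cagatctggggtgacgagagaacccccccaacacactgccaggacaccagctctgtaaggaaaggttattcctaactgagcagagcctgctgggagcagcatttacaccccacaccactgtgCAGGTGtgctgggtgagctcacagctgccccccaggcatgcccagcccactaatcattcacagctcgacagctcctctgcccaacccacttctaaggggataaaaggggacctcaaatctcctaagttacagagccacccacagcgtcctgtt

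No GLI match lay in the 4 windows, and 0.240% of 32851 RefSeq promoters of the same length held one. The E-box letters occurred in each of the 4 windows, starting 111 bases before the start in Krt8, 214 in Krt18, 44 in Krt7 and 128 in Krt5. The same letters were found in 18.7% of all promoters. They also occurred in Krt23 (232 bases before the start), which was listed at 0 TPM in all pools, and not in Krt14. The Krt14 window (11:100206006-100206280) lies inside its gene span, so the region before the listed 5′ end of Krt14 was not searched. AP-2 letters were found in Krt18 (83 bases before the start) and at 2 places in Krt7 (146 and 70), against 15.1% of all promoters. SP1 letters occurred 4 times in Krt7 and in 34.4% of all promoters, and the first of them overlaps the AP-2 match at 146. The capitals at the start of Krt8 are a TATA match on each strand that overlap each other, and 13.0% of all promoters had one. These matches are descriptions of sequence, not sites shown to be bound, and the motifs were chosen with the expression values known.

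RNA levels are given as TPM (a share of each library's RNA corrected for transcript length, scaled to a sum of 1000000). Differences are Shh-/- minus WT on the log2(TPM + 1) scale, with the standard error (SE). They come from 1 limma fit to 16972 genes whose mean TPM reached 1, and p-values are adjusted over all of them (Benjamini-Hochberg, threshold 0.05). Depth was uneven, at 18291588 aligned reads in Shh1 and 37937824 to 41712530 in the other pools, as derived from the tables with a read length of 75 nt. The RNA integrity number was 8 in Shh1, 7.7 in Shh2, 7.7 in WT4 and 9 in WT6. Total RNA was 260 ng in Shh1, 200 in Shh2, 210 in WT4 and 310 in WT6. As checks of the labels, Shh was 10.4 TPM in Shh1 and 10.8 in Shh2 against 23.7 and 42.1 in WT (difference -1.49, limma adjusted p = 0.0895), and its target Ptch1 was 12.9 and 13.8 against 57.8 and 55.1 (-2.00, limma adjusted p = 0.0319). A null allele can still give transcripts, so Shh RNA is only a partial check. The foregut genes Foxa2, Nkx2-1 and Sox2 and the epithelial gene Epcam were detected in every pool, but none of them is specific to larynx, and Foxa2 and Nkx2-1 were lower in both Shh-/- pools. The median difference over all tested genes was 0.08.

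By limma, 0 of the 6 tested keratins were lower in Shh-/- at an adjusted p under 0.05 (0.165% of all tested genes were), and 0 were higher (0.56% of all tested genes were). At an unadjusted p under 0.05, 1 keratin was higher, Krt8 (17.5% of all tested genes), and 2 were lower, Krt7 and Krt5 (7.22%). Both Shh-/- pools lay above both WT pools for 2 of the 6, Krt8 and Krt18, against 38.0% of all tested genes. Both lay below for 2 of the 6, Krt7 and Krt5, against 22.7% of all tested genes. The 3 untested members, Krt14, Krt17 and Krt23, fell below the minimum level. With 2 pools per genotype an exact permutation test could not give a two-sided p below 0.33, and none was run.

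**Figure D1:**
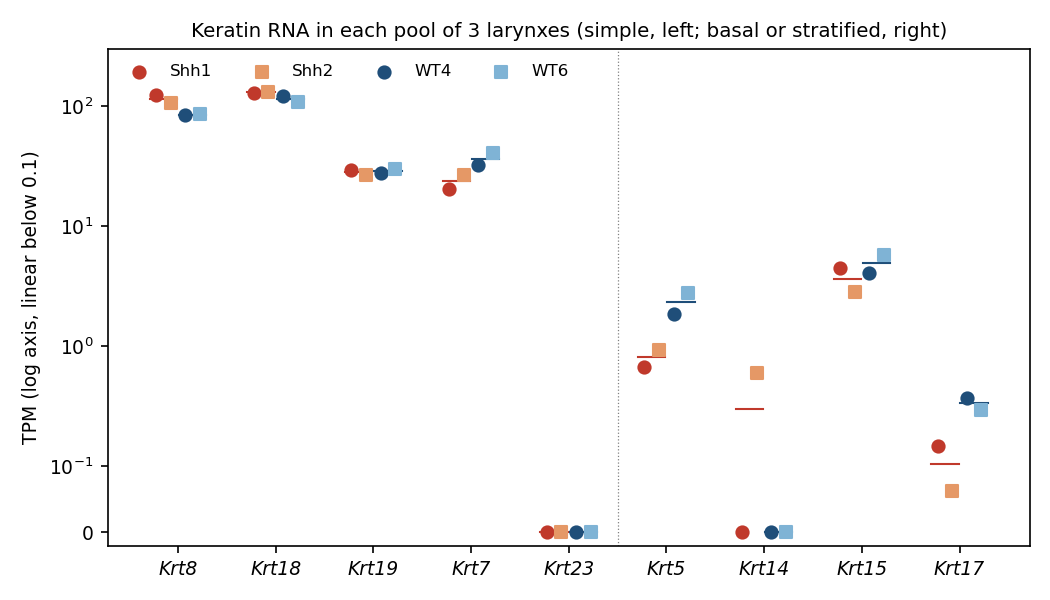
TPM of the 9 keratins in each pool, on a log axis that is linear below 0.1; points are single pools and short lines are genotype means (n = 2 pools each). Krt8 and Krt18 lie near 100 TPM in all pools, Krt7 and Krt5 are lower in both Shh-/- pools than in both WT pools, and Krt23 is listed at 0 throughout.

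Krt8 and Krt18 supplied most keratin RNA in every pool. Krt8, the type II partner, was 124.3 TPM in Shh1 and 107.6 in Shh2, and 84.0 in WT4 and 86.5 in WT6. Both Shh-/- pools were above both WT pools, with means of 116.0 ± 11.7 and 85.3 ± 1.80 TPM (SD, n = 2 each), a 1.36-fold higher level in Shh-/-. The log2 difference was 0.44 (SE 0.11, 95% interval 0.14 to 0.73), with a limma adjusted p = 0.128. Krt18, the type I partner, was 129.1 TPM in Shh1 and 132.7 in Shh2, with 122.7 in WT4 and 108.5 in WT6. Its pools did not overlap either, but the gap between the lower Shh-/- pool and the higher WT pool was smaller than the spread between the WT pools. The difference was 0.18 (SE 0.11, 95% interval -0.09 to 0.45), with a limma adjusted p = 0.339. When library differences that follow GC content and transcript length were removed (the GC and length correction), the difference was 0.07 for Krt8 and -0.13 for Krt18, so neither direction can be read as settled.

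Krt19, a type I keratin without the usual tail domain that marks embryonic gut and airway epithelium, did not differ detectably between genotypes with 2 pools each. It was 29.7 TPM in Shh1 and 26.7 in Shh2, with 28.0 in WT4 and 30.0 in WT6. The groups overlapped, and the difference was -0.04 (SE 0.13, limma adjusted p = 0.867) with a 95% interval from -0.36 to 0.29. That interval still allows a moderate difference in either direction. The sign of so small a difference depended on single pools, being 0.04 without Shh2 and 0.01 without WT6.

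Krt7, the type II keratin of ducts and of airway lining, was lower in Shh-/-. It was 20.6 TPM in Shh1 and 26.9 in Shh2, against 32.7 in WT4 and 40.7 in WT6. The groups did not overlap, and the means were 23.8 ± 4.41 and 36.7 ± 5.67 TPM (SD, n = 2 each), a 1.55-fold higher level in WT. The difference was -0.61 (SE 0.19, 95% interval -1.10 to -0.13) but did not pass the threshold (limma adjusted p = 0.153). With the GC and length correction it was -0.97. Krt7 has 5 transcripts in GENCODE M21, from 351 to 4094 nt, and its gene level sums over them. Read coverage per 1000000 aligned reads, which does not use that sum, gave a similar ratio of Shh-/- to WT means, 0.642 against 0.646 in TPM.

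Krt23, a type I keratin of simple and glandular epithelia, was listed at 0 in all 4 pools. A listed 0 need not mean absent RNA in these tables, since all 37 mitochondrial genes are at 0 in every pool. Why those are at 0 was not tested, and the reason need not apply to Krt23.

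The basal and stratified keratins were at much lower levels. Krt5, the type II keratin of basal cells, was 0.672 TPM in Shh1 and 0.932 in Shh2, with 1.85 in WT4 and 2.78 in WT6. Neither mutant pool reached the lower WT pool, with means of 0.802 ± 0.184 and 2.32 ± 0.655 TPM (SD, n = 2 each), a 2.89-fold higher level in WT. The difference was -0.87 (SE 0.25, 95% interval -1.52 to -0.22), with a limma adjusted p = 0.144. These levels correspond to about 13 and 43 reads in Shh1 and Shh2 and 77 and 121 in WT4 and WT6. At such levels the added 1 shrinks the difference, which was -1.41 with a pseudocount of 0.1. The mean of Krt5 was just above the level needed for testing.

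Krt14, the usual type I partner of Krt5, was listed at 0 in Shh1, WT4 and WT6 and at 0.594 TPM in Shh2. It was therefore not tested, and no ratio of Krt5 to Krt14 could be formed. Krt15, a type I keratin of basal progenitors, was the most abundant of the basal group, at 4.50 TPM in Shh1, 2.82 in Shh2, 4.10 in WT4 and 5.70 in WT6. The groups overlapped, and the difference was -0.35 (SE 0.27, 95% interval -1.05 to 0.35, limma adjusted p = 0.443). Krt15 has 2 transcripts of 689 and 1700 nt in GENCODE M21, and coverage per 1000000 aligned reads gave another order of pools. Coverage was 0.0918 in Shh1 and 0.101 in Shh2 against 0.146 in WT4 and 0.187 in WT6, so on that measure, chosen after the data were seen, the groups did not overlap and the ratio of means was 0.581 in place of 0.747 in TPM.

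Krt17, a type I keratin of periderm, appendages and stressed epithelium, was 0.146 TPM in Shh1 and 0.0621 in Shh2, with 0.370 in WT4 and 0.295 in WT6. The Shh-/- pools were below the WT pools, but these levels correspond to about 2 reads in each Shh-/- pool and to 11 and 9 in the WT pools, and no test was made. Krt14, Krt16 and Krt17 are close paralogs, so reads may have been divided among them and the values of Krt14 and Krt17 are uncertain. Krt16 itself was listed at 0 in all pools.

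The order of mean levels was Krt18, Krt8, Krt7, Krt19, Krt15, Krt5, Krt17, Krt14 and Krt23. The neighbours Krt18 and Krt8 overlapped in their ranges over the 4 pools, as did Krt7 and Krt19, and Krt17 and Krt14. In the Shh-/- pools alone Krt19 was above Krt7 in Shh1 and level with it in Shh2, and in both WT pools Krt7 was above Krt19.

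Summed over the 9 members, keratin RNA was 309.1 TPM in Shh1 and 298.3 in Shh2, with 273.7 in WT4 and 274.6 in WT6. The simple members accounted for 303.7 and 293.9 TPM against 267.4 and 265.8. The basal and stratified members summed to 5.32 and 4.41 TPM in Shh-/- against 6.33 and 8.78 in WT, or 1.72 and 1.48% of keratin RNA against 2.31 and 3.20%. With TPM as deposited, the Shh-/- pools were thus above WT in the simple sum and below WT in the basal sum. The simple sum is mostly Krt8 and Krt18, whose differences were 0.07 and -0.13 with the GC and length correction. Its direction is therefore not settled. Both Shh-/- pools lay above both WT pools for 38.0% of all tested genes and below for 22.7%. Type I and type II sums stayed close to each other, with a type I to type II ratio of 1.12 and 1.20 in Shh-/- and 1.31 and 1.11 in WT, and the groups overlapped.

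The make-up of the keratin RNA differed in the same way in both mutant pools. Krt8 and Krt18 together made up 82.0 and 80.6% of keratin RNA in Shh-/- and 75.5 and 71.0% in WT. Krt7 made up 6.68 and 9.01% in Shh-/- against 12.0 and 14.8% in WT. Ratios within a pool do not depend on library scaling. Krt7 to Krt8 was 0.166 and 0.250 in the Shh-/- pools and 0.390 and 0.471 in WT, and Krt7 to Krt19 was 0.694 and 1.01 against 1.17 and 1.36. Krt19 to Krt8 was 0.239 and 0.248 against 0.333 and 0.347, and Krt5 to Krt15 was 0.149 and 0.331 against 0.452 and 0.488. For each of these 4 ratios the mutant pools lay below WT without overlap. For Krt7 to Krt8 this only restates the single-gene values, as Krt7 was lower and Krt8 higher in both mutant pools. The 4 ratios share members and are not separate results, and no share over other gene pairs was computed. Krt8 to Krt18, the partner pair, was 0.962 and 0.811 in Shh-/- and 0.684 and 0.797 in WT, where Shh2 and WT6 were nearly equal. No test was made of sums, shares or ratios.

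**Figure D2:**
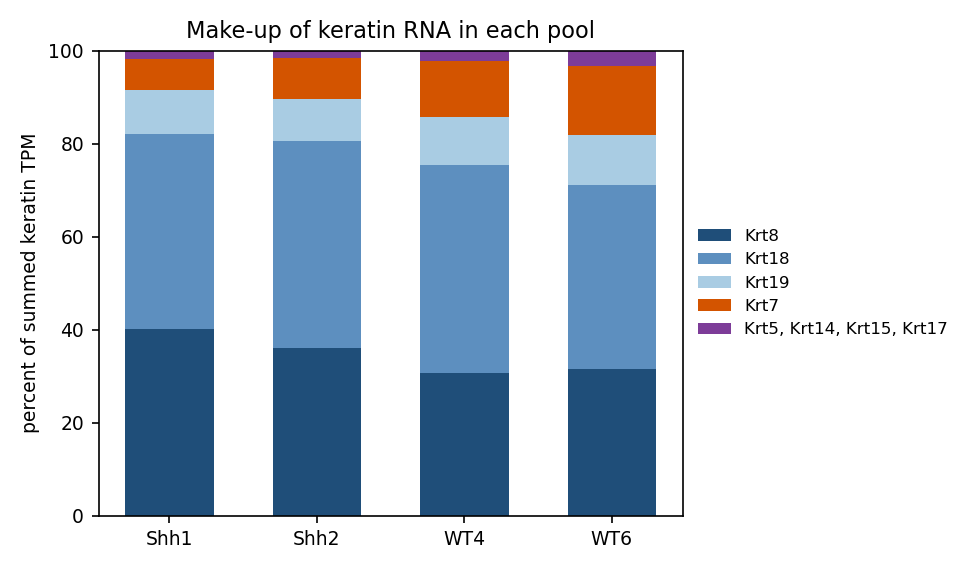
Stacked bars give the percent of the summed keratin TPM that each member, or the 4 basal and stratified members together, made up in each pool. Krt8 and Krt18 together take 82.0 and 80.6% in Shh1 and Shh2 and 75.5 and 71.0% in WT4 and WT6, and the Krt7 segment is wider in both WT pools.

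Of the other 42 keratin genes, 28 were listed at 0 in all pools and 12 were above 0 with a mean below 1 TPM, which left Krt10 and Krt20. Krt20, a type I simple keratin of intestine and urothelium, was 3.06 TPM in Shh1 and 3.88 in Shh2, with 6.07 in WT4 and 7.44 in WT6. Its Shh-/- pools were below its WT pools, with a difference of -0.80 (SE 0.20, limma adjusted p = 0.125). Krt10, a type I keratin of differentiating epidermis, was 5.05 and 5.63 TPM against 6.30 and 5.99, a difference of -0.17 (limma adjusted p = 0.539).

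Epithelial content was examined beside the keratins with 16 general epithelial genes, such as adhesion and tight junction genes, none of them a keratin. By limma 0 of the 16 passed the threshold, and at an unadjusted p under 0.05, 3 were higher and 1 was lower. Both Shh-/- pools were above WT for 6 and below for 2. The median difference was 0.16, with a range of -0.04 to 0.36 over the alternatives. For this list and those below, the shares of all tested genes at an unadjusted limma p under 0.05 are 17.5% higher and 7.22% lower. At the threshold they are 0.56% higher and 0.165% lower. Both Shh-/- pools lay above for 38.0% of all tested genes and below for 22.7%. Epcam, an epithelial adhesion molecule, was 123 and 101 TPM in Shh-/- against 90.3 and 86.4 in WT. Cldn6, a tight junction protein of embryonic epithelia, was 190 and 165 against 181 and 172. The serine protease inhibitor gene Spint2 was 112 and 92.9 against 80.3 and 72.4, and the tight junction gene Cldn4 was 60.7 and 45.1 against 51.2 and 48.7. The 2 genes below WT, named after their values were seen, were Cdh1 and Esrp2. Cdh1, which encodes E-cadherin, was 41.1 and 25.9 TPM in Shh-/- against 45.2 and 43.2 in WT (-0.42, SE 0.23, limma adjusted p = 0.311). Esrp2 was 11.8 and 10.0 against 14.2 and 16.2 (-0.45, SE 0.16, limma adjusted p = 0.185). The sum over the list was 852 TPM in Shh1 and 661 in Shh2, against 698 and 665 in WT4 and WT6, so Shh1 stood above the other 3 pools.

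When each library was centred on these 16 genes, the differences were 0.27 for Krt8, 0.01 for Krt18, -0.20 for Krt19, -0.78 for Krt7, -1.04 for Krt5 and -0.52 for Krt15. The centring acted mainly on Shh1, whose mean log2(TPM + 1) over the 16 genes was 5.32, against 4.88 in Shh2, 4.95 in WT4 and 4.92 in WT6. No member passed the threshold on this scale either. Over all genes the number called under this centring was 394 higher and 489 lower, against 95 higher and 28 lower with TPM as deposited, and the median of all genes moved to -0.08.

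**Figure D3:**
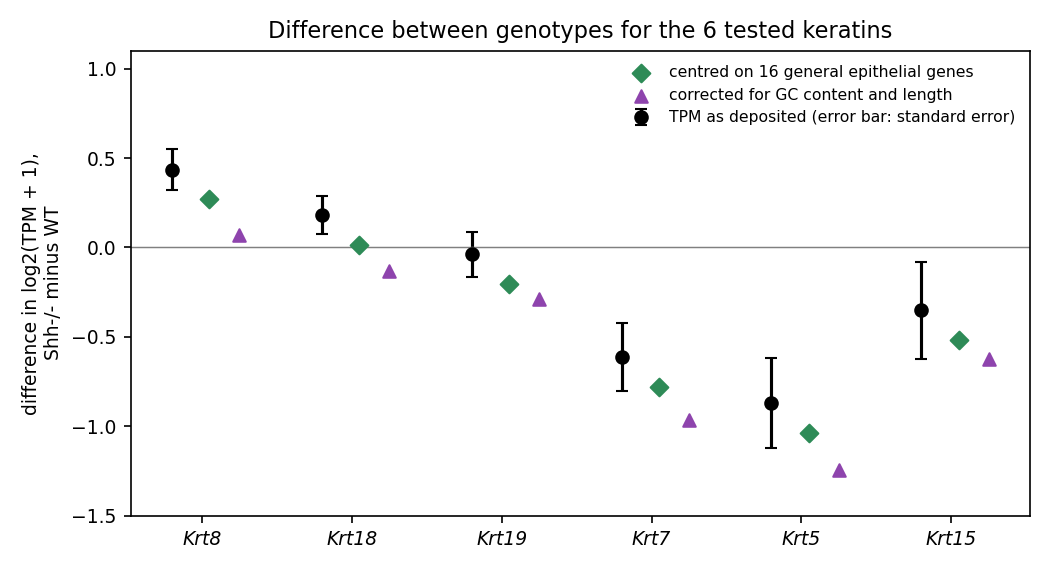
Difference in log2(TPM + 1), Shh-/- minus WT, of the 6 tested keratins with TPM as deposited (black, bars are standard errors), after centring on 16 epithelial genes (green) and with the GC and length correction (purple). Krt7 and Krt5 are below 0 on all 3 scales, and Krt18 is at 0.18, 0.01 and -0.13.

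Keratin filaments are anchored at desmosomes and hemidesmosomes, and 10 of 12 genes of these junctions were tested. By limma 0 passed the threshold, while at an unadjusted p under 0.05 there were 6 higher and 1 lower. Both Shh-/- pools were above WT for 7 of them (38.0% of all tested genes) and below for 1 (22.7%). The median difference was 0.48, or 0.14 with the GC and length correction. Jup, plakoglobin, which links desmosomal cadherins to desmoplakin and is shared with adherens junctions, was 52.5 and 55.4 TPM in Shh-/- against 30.7 and 25.2 in WT (0.93, SE 0.14, limma adjusted p = 0.0688). Dsp, desmoplakin, which binds the keratin filaments themselves, was 10.46 and 13.5 against 16.1 and 20.8 (-0.59, SE 0.20, limma adjusted p = 0.173). The 2 binding partners thus lay on opposite sides of WT. Itga6, a hemidesmosome integrin that endothelium also makes, was 33.8 and 39.8 against 28.1 and 24.5, and Dst, the linker of keratins to that integrin, was 28.9 and 30.0 against 27.8 and 26.9.

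Of 13 transcription regulators of epithelial fate, 10 were tested and 0 passed the threshold by limma (at an unadjusted p under 0.05, 2 higher and 0 lower), with a median of 0.20. Trp63, which drives the basal keratins, was 7.58 and 6.82 TPM in Shh-/- against 8.43 and 17.5 in WT (-0.69, SE 0.34, limma adjusted p = 0.279). Its Shh-/- pools were below WT, but WT4 was close to Shh1 and WT6 stood apart. WT6 was also the highest pool for Krt5, Krt7, Krt15 and Foxa2. The part of Trp63 in the keratin values was not tested. Tfap2a, an AP-2 factor of surface ectoderm and neural crest, was 19.8 and 15.8 against 7.23 and 4.02 (1.54, SE 0.28, limma adjusted p = 0.0887). Grhl2, a regulator of epithelial barrier genes, overlapped between genotypes, at 12.3 and 9.66 against 9.45 and 11.2 TPM.

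Partners of keratin assembly and turnover showed no common shift, with a median of 0.01 over 11 tested genes and a range of -0.20 to 0.15 over the alternatives. By limma 0 passed the threshold, and at an unadjusted p under 0.05 the count was 1 higher and 0 lower. The co-chaperone gene Dnajb6, whose product binds Krt18, was 103 and 106 TPM in Shh-/- against 100 and 104 in WT. The chaperone gene Hspa8 and Krtcap2 overlapped between genotypes, and Ywhaz, a 14-3-3 protein gene, was 527 and 569 against 507 and 360 TPM.

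Markers of the tissues that make simple keratins moved in different directions. Of 9 foregut endoderm genes, 7 were tested, 0 passed the threshold by limma, at an unadjusted p under 0.05 there were 1 higher and 5 lower, and the median was -1.64. Foxa2, a pioneer factor of endoderm, was 5.34 and 9.12 TPM in Shh-/- against 29.2 and 39.8 in WT (-2.13, SE 0.29, limma adjusted p = 0.0602). Nkx2-1, the lung and thyroid lineage factor, was 6.16 and 3.61 against 15.9 and 17.9, and Foxa1 was 14.5 and 15.6 against 25.6 and 37.8. Sox2, the factor of the anterior foregut, overlapped, at 52.2 and 37.9 against 39.5 and 47.3. The list summed to 75.0 to 90.2 TPM in Shh-/- and 126 to 161 in WT. Foxa2, Nkx2-1 and Foxa1 were thus below WT in both mutant pools. Sox21, named after its values were seen, went the other way. It was 8.58 and 7.54 TPM in Shh-/- against 3.29 and 4.23 in WT (0.93, SE 0.19, limma adjusted p = 0.0993). The part of these genes in the keratin values was not tested.

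Surface ectoderm and periderm were examined with 9 genes, of which 6 were tested, 1 passed the threshold and the median was 0.39. The called gene was Wnt6, a ligand of surface ectoderm, at 20.5 and 15.7 TPM in Shh-/- against 3.13 and 2.84 in WT (2.25, SE 0.19, limma adjusted p = 0.0383). Perp, a desmosome gene of stratified epithelium, went the other way, at 13.2 and 12.1 against 14.7 and 24.6, and Cdcp1 overlapped. The list summed to 62.1 to 74.3 TPM in Shh-/- and 46.5 to 59.1 in WT, and Krt4 was at 0 in all pools. Notochord was examined with 5 genes, of which 4 were tested. Car3 passed the threshold, at 12.8 and 9.27 TPM against 2.32 and 2.19 (1.87, SE 0.21, limma adjusted p = 0.0493). The notochord factor T was 2.64 and 2.21 against 1.51 and 1.77, the secreted BMP inhibitor gene Chrd was 2.67 and 2.27 against 1.19 and 1.68, and its relative Nog was lower, at 3.67 and 4.82 against 6.95 and 5.27. The notochord list summed to 18.6 to 21.8 TPM in Shh-/- and 10.9 to 12.1 in WT. Mesothelium genes (6 of 7 tested, 0 called by limma, 1 at an unadjusted p under 0.05, higher, median 0.47) summed to 57.6 to 95.2 TPM in Shh-/- and 59.6 to 70.2 in WT. Wt1 was 8.62 and 13.3 TPM against 4.94 and 7.71, and Upk3b, Podxl and Tbx18 overlapped. Surface ectoderm and notochord sums were above WT in both mutant pools, but each rested on its called gene. Without Wnt6 the surface ectoderm sum was 53.8 TPM in Shh1 and 46.4 in Shh2 against 43.4 in WT4 and 56.3 in WT6, and without Car3 the notochord sum was 8.98 TPM in Shh1 and 9.31 in Shh2 against 9.78 in WT4 and 8.72 in WT6, so both overlapped between genotypes. Their part in the keratin values was not tested.

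**Figure D4:**
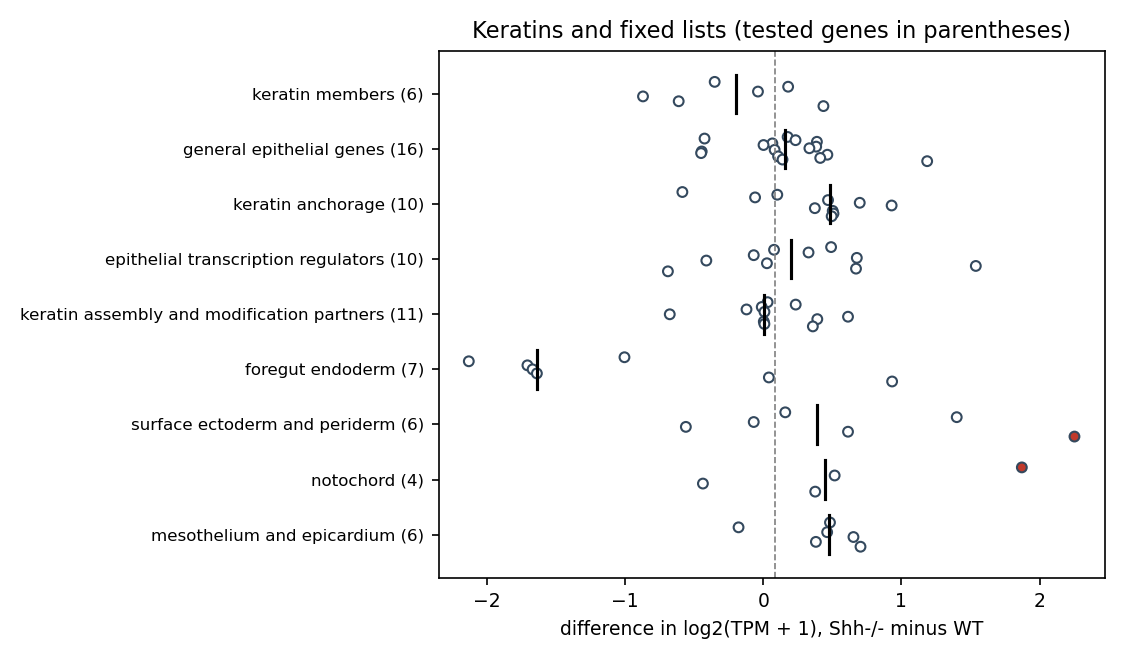
Each circle is 1 tested gene, placed by its difference in log2(TPM + 1), Shh-/- minus WT; filled circles passed an adjusted p of 0.05, black bars are list medians and the dashed line is the median of all tested genes (0.08). The keratins spread from -0.87 to 0.44 around a median of -0.19, and the foregut endoderm median is -1.64.

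Markers of tissues that make little keratin also differed between the pools. Of 10 neuron genes 6 passed the threshold, all higher in Shh-/-, and the list summed to 806 to 897 TPM against 145 to 213. Of 7 tested muscle genes 2 passed, Myh6 and Myh7, both higher, with sums of 181 to 297 TPM against 69.3 to 79.2. Of 8 mesenchyme genes 1 passed, Twist1, at 147 and 125 TPM in Shh-/- against 46.1 and 43.8 in WT, with list sums of 1411 to 1445 against 1110 to 1165. At an unadjusted p under 0.05, 3 mesenchyme genes were higher and 2 lower. The lower ones, named after their values were seen, were Foxf1, a Hedgehog target of foregut mesenchyme, at 0.848 and 9.57 TPM in Shh-/- against 72.3 and 64.6 in WT (-3.97, SE 0.81, limma adjusted p = 0.0976), and Tcf21 (-0.78, limma adjusted p = 0.195). By limma 0 of 6 endothelium genes (6 higher at an unadjusted p under 0.05) and 0 of 5 tested neural crest genes (4 higher) passed, with medians of 0.77 and 0.60. Of 6 erythroid genes 5 overlapped between genotypes, with 0 called by limma and 0 at an unadjusted p under 0.05. TPM is a share of all RNA, and the part of these tissues in the keratin values was not tested.

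The genes most like Krt8 over the 4 pools were chosen by the root mean square distance between centred log2(TPM + 1) profiles, among 12529 genes whose mean TPM reached 5. They were Stat6 (0.0108), Bcl2l13 (0.0125), Slc25a22 (0.0131) and Sdc1 (0.0134). Sdc1, the epithelial proteoglycan syndecan-1, was 107 and 95.4 TPM in Shh-/- against 73.1 and 75.5 in WT. The profile of Krt8 was a common one, with 935 genes within a distance of 0.1. For Krt5 the closest were the phosphodiesterase gene Pde9a (0.0212), Ifit2 (0.0422), Il13ra1 (0.0422) and Pde4b (0.0632), and 18 genes lay within 0.1. Pde9a was 16.2 and 18.4 TPM in Shh-/- against 28.8 and 37.4 in WT. Krt5 is so low that the added 1 shrinks its difference, and the match is to that shrunken profile. WT means were 1.91-fold (Pde9a), 1.99-fold (Ifit2), 1.95-fold (Il13ra1) and 2.18-fold (Pde4b) higher, against 2.89-fold for Krt5. Which genes are closest to Krt5, and how many lie within 0.1, thus depend on the pseudocount. With 4 pools these distances describe the shape of the values only.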

How the data were processed

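Polyadenylated RNA from 4 pools of 3 larynxes was made into directional libraries. Per the submitters' processing notes, the tools were HISAT2 2.1.0 and StringTie 1.3.6 and the build was mm10. The tables deposited by the authors hold, per gene, coverage (mean read depth, not normalised), FPKM (scaled to length and aligned bases) and TPM (scaled to a sum of 1000000 per library) and no counts. The strand setting and the handling of reads with several matches are not given in the sources used here. Rows of 1 gene ID were summed. Aligned reads were derived from coverage and FPKM.

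Log2(TPM + 1) of 16972 genes (mean TPM at or above 1) was fitted with limma 3.58.1 (lmFit, eBayes with trend) in R 4.3.3, with no covariates and Benjamini-Hochberg adjustment at 0.05, and the code was tested on simulated data. The labels do not say that the pools of a genotype came from separate litters, so p-values may not cover the spread between litters. They rest on the spread between pools within both genotypes, which eBayes draws towards a trend over all 16972 genes. No counting interval could be given for TPM.

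The members, lists and motifs were chosen with earlier results of these data known. Named genes are the 9 members, the genes of each list that passed the threshold or were among its 4 most abundant, other keratins at or above that mean TPM, Shh and Ptch1, and for Krt8 and Krt5 the 4 genes nearest in profile; 1 gene that this rule names is not reported here. Alternatives were a pseudocount of 0.1, other filters, quantile normalisation, median centring, centring on epithelial genes, removal of haemoglobin and mitochondrial genes, FPKM, other variance settings, an adjusted p of 0.10, a GC and length correction (each library's deviations fitted on splines, 5 degrees of freedom, of GC content and of length for 16887 genes) and each pool left out. The mitochondrial genes were at 0 in every pool, so leaving them out changed no value. Coverage per 1000000 aligned reads, and list sums without a called gene, were added after the data were seen. So were the values of Cdh1, Esrp2, Sox21, Foxf1 and Tcf21.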

Additional observations from a re-analysis of the deposited data

How the results depend on the processing

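No keratin passed the threshold under any alternative that was run, including an adjusted p of 0.10. The number of members with both Shh-/- pools below both WT pools was 2, and became 1 with a minimum mean TPM of 5, 1 with FPKM (Krt5 was not tested in either), 4 with quantile normalisation, 4 with median centring, 3 with no filter, 3 with epithelial centring and 5 with the GC and length correction, and it ranged from 2 to 4 with single pools left out (4 without Shh1 and 4 without WT4). The number above both was 2, and became 1 with median centring, 1 with epithelial centring and 0 with the GC and length correction. The shares of all tested genes, 22.7% below and 38.0% above, hold for TPM as deposited and were not computed for the alternatives. The median of all genes also moved, to -0.08 with epithelial centring and -0.01 with the GC and length correction. These changes in count are therefore not results about the keratins. With a pool left out, 1 pool stood against 2, which makes non-overlap easier to reach. Krt18 turned from 0.18 to -0.13 with the GC and length correction (limma adjusted p = 0.473), and Krt19 ranged from -0.112 to 0.0356 with single pools left out. Krt8 ranged from 0.07 to 0.54, Krt7 from -0.97 to -0.43, Krt5 from -1.41 to -0.67 and Krt15 from -0.62 to -0.09 over all alternatives. Over all genes 123 were called, against 69 with a pseudocount of 0.1, 0 of 28524 without a filter, 82 with a minimum of 5, 883 with epithelial centring, 0 without Shh1, 0 without Shh2, 21 without WT4 and 16 without WT6. With a pool left out, the lone pool of its genotype was assumed to vary like the other genotype. The cause of these shifts was not tested. The median of all genes was 0.08, and -0.05 with median centring. No paired analysis was possible because the genotypes share no replicate numbers. Reads limit Krt5, Krt14 and Krt17, which few reads covered in Shh1, the shallowest pool.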
